A study of Drosophila melanogaster with 2 samples.

Results

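Candidate binding regions of the fly forkhead protein Crg-1 whose summits fell inside 3' untranslated regions (3' UTRs) numbered 1273 of the 30000 regions in the authors' pooled list, or 4.24%. A region was a member when its summit, the position of highest signal within it, lay inside an annotated 3' UTR, in no 5' UTR and more than 500 bp from every annotated start site. The choice rested on position and annotation alone, so signal, rank and replicate support were free to vary among the members. The pooled list runs down to low signal by construction, so a candidate is not a called binding site. Only 29 of the 1273 members were in the set that the authors kept after a reproducibility threshold, a share of 2.28% (95% Wilson interval 1.59 to 3.25%), where the whole list had 12.4%.

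Chromatin immunoprecipitation with sequencing (ChIP-seq) was used, which recovers the DNA fragments that a protein occupies. Both libraries came from whole adult Drosophila melanogaster, males and females pooled and of unknown age, from 1 transgenic line that stably carries Crg-1 fused at its C terminus to green fluorescent protein (GFP). The chromatin was sonicated to fragments of 200 to 800 bp and precipitated with an antibody against GFP, although a second label names Crg-1 as the antibody target. The 2 libraries are labelled biological replicates 2 and 3, share a donor label and form 1 group, and the lists of both were called against the same control alignment. No untagged flies and no second condition were analysed here, so the comparisons are between classes of region within the lists. A whole fly mixes all tissues, and a region bound strongly in few cells cannot be told apart from one bound weakly in many. Read depth is unknown, since the lists give no read counts.

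The 3' UTR is the transcribed stretch between the stop codon and the site where the transcript is cleaved and polyadenylated. In the mRNA it is where microRNAs and RNA-binding proteins act on stability, localisation and translation, and in fly neurons many 3' UTRs are extended. ChIP-seq reads the same stretch as DNA, without strand, and most binding of transcription factors in flies is known from promoters and from enhancers in introns and between genes. Crg-1 is named as a circadianly regulated gene and belongs to the forkhead family, whose DNA-binding domain recognises words built around AAACA.

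The 30 bases centred on the summit are shown for the 8 members of highest signal once 1 chromosome arm was left out. That arm also held members of higher signal than several of those shown. The bases are read from the Release 6 genome of RefSeq (dm6), 5' to 3' on the strand of the gene. Capitals mark any of the 8 forkhead words that open with A or G, go on with C or T, hold AAA in the middle, then have C or T and close with A, searched on both strands (GTAAACA and ATAAACA are examples). Of the 8 sequences 3 hold a word. Over the 29 members of the authors' thresholded set, these 8 included, 4 did (13.8%). Over all members 128 of 1273 windows of this length did (10.1%), and over the whole list 2704 of 30000 did (9.01%).
stas (chrX:17625089-17625118, minus strand): ataaacccacaatgctcaaaactggttctt
Lsd-2 (chrX:15069453-15069482, minus strand): gggcgaggtgcaaagtgcagaaagtggcgt
Octbeta1R (chr3R:22518490-22518519, plus strand): cccctcgccgccgcccacagtgggcgtgtc
mtd (chr3R:5271047-5271076, minus strand): gtactttttgcactcagtgtccgcatttcc
CG13949 (chr2L:856182-856211, plus strand): agacactgccaagctgaATAAACAagccgc
Fnta (chr2L:4829238-4829267, minus strand): atctaagtgagctgttgTGTTTGCacacgt
CG16989 (chrX:796855-796884, plus strand): ctattggtcgaatgggctgactggaaaagc
CG5895 (chr3L:16037196-16037225, plus strand): tagatatgttaATAAACAaaacacacaact

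The word GTAAACA, the textbook core of many forkhead sites, lay within 50 bp of the summit in 28 members. The 4 of highest signal, with the same arm left out, are shown with 30 bases around the word, on the gene's strand. Capitals mark GTAAACA or, where it lies on the other strand, its complement TGTTTAC. None of these 4 was in the thresholded set, which held 1 of the 28.
by (chr3R:9528610-9528639, minus strand): atgcccaagttGTAAACAaagccatgaaga
Pp1alpha-96A (chr3R:24521649-24521678, plus strand): aataaaatatttGTAAACAgcagcgcaaca
Ugt35C1 (chr3R:11126657-11126686, minus strand): tatatctttgtTGTTTACagttttaagaac
ras (chrX:10748712-10748741, plus strand): tatagtgttggaTGTTTACtattataccga

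The word in by, which encodes the focal adhesion protein tensin, was centred 3 bp from a summit with signal 104.8, rank 4011 of the pooled list. The overlapping region in replicate 2 ranked 2145 and had its summit 6 bp away. The one in replicate 3 ranked 3154, but its summit lay 292 bp away. In Pp1alpha-96A, a catalytic subunit of protein phosphatase 1, the word lay 14 bp from a summit of signal 96.6. In Ugt35C1, named as a UDP-glycosyltransferase, it lay 3 bp from a summit of signal 74.8. In ras, the fly IMP dehydrogenase gene, it lay 32 bp from a summit of signal 70.8. These 4 members ranked 4011, 4598, 6917 and 7543, below the last thresholded member at rank 3687.

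**Figure D1:**
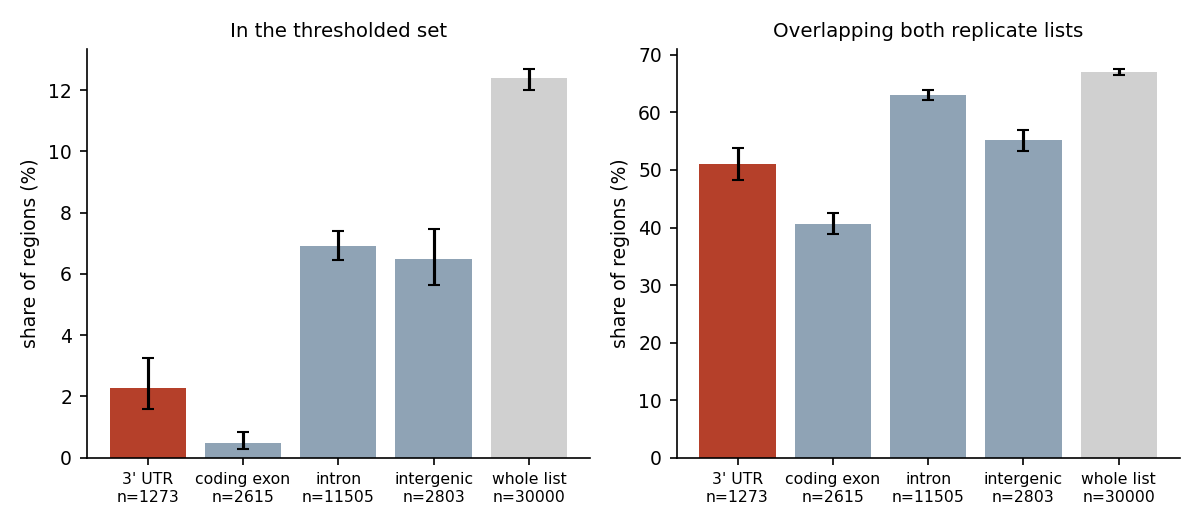
Shares of regions in each class of summit, in percent, with 95% Wilson intervals over regions; the left panel gives the share in the thresholded set and the right panel the share overlapping a region of both replicate lists. The 1273 regions in 3' UTRs stood at 2.28% and 51.1%, above coding exons and below introns and intergenic sequence in both panels.

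Over the whole list the members stood between coding exons and non-coding sequence in the thresholded share, in signal and in replicate support. The thresholded share and the signal are not separate results. In each of these classes the thresholded count equalled the count at the top ranks of the pooled list, so both describe the same order of signal. The steps along the list given below cut that order too. The thresholded share of 2.28% in 3' UTRs compared with 0.497% of 2615 summits in coding exons (0.291 to 0.849%), with 6.92% of 11505 in introns (6.47 to 7.40%) and with 6.49% of 2803 in intergenic sequence (5.64 to 7.47%). All 3 comparison classes were held to the same distance of over 500 bp from any start site. The 3' UTR share was 1.78 percentage points above coding exons (95% Newcombe interval 1.01 to 2.78). Its difference from introns was -4.64 points (-5.48 to -3.57) and from intergenic sequence -4.21 points (-5.41 to -2.92). None of these intervals includes 0. They cover counting error over regions only: regions are not biological replicates, regions in the same gene or next to each other are not independent, and 226 of the members overlapped another member.

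The signal column, the authors' own unit for region height, was used here for ordering regions inside a list and for nothing else. Its median was 38.7 over the members (quartiles 33.4 and 48.7) and 45.9 over the whole list, against 36.7 in coding exons, 42.9 in introns and 40.0 in intergenic sequence. The lowest member stood at 29.4 and the highest at 521. Ranks ran from 126 to 29966 with a median of 19582, so the typical member lay in the lower part of the list.

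Counted along the list in steps of 3000 ranks, members made up 0.567% of the strongest step, 1.27% of the next and 2.63% of the one after. The share was 5.20% at ranks 15001 to 18000 and between 5.77% and 6.33% in the 4 weakest steps. Promoter summits fill much of the top of the list, so the share was also taken among regions over 500 bp from a start site. There it stood at 2.08% in the strongest step and at 7.65% in the weakest, with the highest value, 8.36%, at ranks 18001 to 21000.

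**Figure D2:**
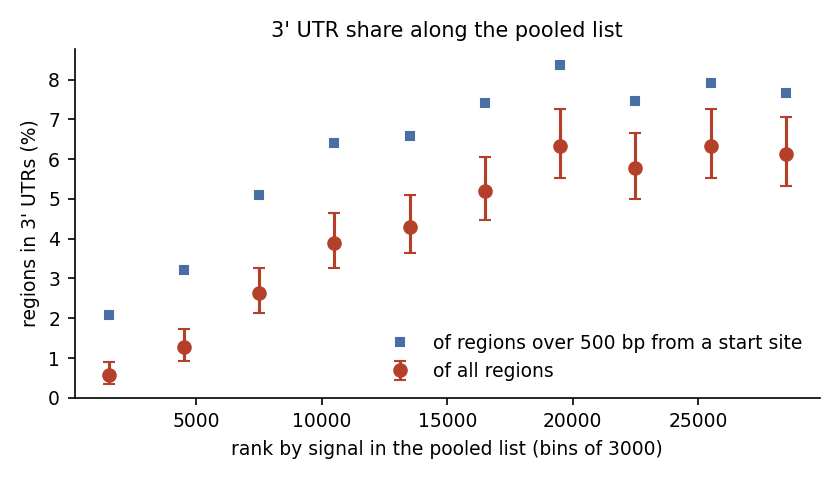
Share of regions with a summit in a 3' UTR in each step of 3000 ranks of the pooled list, strongest at the left; circles give the share of all regions with 95% Wilson intervals, squares the share of regions over 500 bp from a start site. The circles stand at 0.567% in the strongest step and 6.13% in the weakest.

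For scale, the bases that satisfy the same rule were counted over the annotation and came to 6.77 Mb. Members fell at 188 per Mb of this 3' UTR sequence, against 149 per Mb in coding exons, 218 in introns, 76.9 in intergenic sequence and 224 over the 6 arms. Members in the thresholded set fell at 4.28 per Mb, against 0.742 in coding exons, 15.1 in introns and 4.99 in intergenic sequence. Thus 3' UTRs held more candidates per base than intergenic sequence, while the thresholded densities of both were close.

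Signal near the distance rule was higher on the side of the start site. Of summits in 3' UTRs at 501 to 750 bp from a start site, just inside the rule, 3 of 116 were thresholded and the median signal was 39.7. Just outside, at 251 to 500 bp, 5 of 119 were thresholded and the median signal was 45.7. Within 250 bp of a start site, 22 of 140 were thresholded and the median was 50.2. Regions overlapping a top-ranked region of both replicates, top-ranked meaning the strongest of each, as many as the thresholded set holds, numbered 2 of 116 just inside the rule and 16 of 119 just outside. The thresholded shares on the 2 sides of the rule, 2.59% (0.883 to 7.33%) inside and 4.20% (1.81 to 9.46%) just outside, had widely overlapping intervals. Inside the rule the thresholded counts were 5 of 246 members at 501 to 1000 bp, 10 of 405 at 1001 to 2000 bp and 14 of 622 beyond.

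The strongest member lay in stas, stasimon, which encodes a transmembrane protein of the endoplasmic reticulum needed in motor circuits. Its region spanned chrX:17624994-17625190 on dm6, with signal 521.0 and rank 126 in the pooled list. It had signal 271.9 and rank 200 in replicate 2 and signal 251.0 and rank 79 in replicate 3. The summit lay 839 bp from the nearest transcript end in a 3' UTR of 1193 bp, and that stretch is an intron of another annotated transcript. The region was high in both libraries, and the replicate summits lay 2 and 9 bp from the pooled one.

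The next lay in Lsd-2, the perilipin that coats lipid droplets and guards stored fat, at chrX:15069405-15069537. Its signal was 325.4 at rank 454, with rank 592 in replicate 2 and rank 267 in replicate 3. The summit stood 340 bp from the transcript end, at 89.7% of the length of a 3' UTR of 3310 bp.

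CG30159, an uncharacterised gene by its symbol, followed at chr2R:6993943-6994079 with signal 293.4, rank 537 in replicate 2 and rank 582 in replicate 3. It was the only thresholded member with GTAAACA within 50 bp of its summit. These 3 strongest members were 197, 133 and 137 bp wide, whereas each of the other 1270 had the list's fixed width of 440 bp.

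Octbeta1R, a receptor for octopamine, the insect counterpart of noradrenaline, had signal 188.6 and ranked 1542 in replicate 2 and 1174 in replicate 3. Its summit lay 1574 bp from the transcript end and 10159 bp from the nearest start site, beyond the upper quartile of 3397 bp over all members. In mtd, mustard, the summit of signal 187.8 lay 945 bp from the end, and the replicates differed more, with rank 773 in replicate 2 and rank 3656 in replicate 3.

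CNBP, a zinc finger protein that binds nucleic acids, had signal 179.9 and ranks 488 in replicate 2 and 1005 in replicate 3. A second thresholded summit, outside the member class, lay only 201 bp away. The replicate regions behind these ranks had their summits 199 and 169 bp from the member's, so the ranks are not of a summit at the member's own position. The nearest start site, that of CG3788, was 630 bp away. No other thresholded member had a start site as near.

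CG13949 had signal 177.4 and its summit 40 bp from the transcript end, in a 3' UTR of 129 bp. Fnta, the alpha subunit of farnesyltransferase, had signal 176.7 and its summit 38 bp from the end, in a 3' UTR of 270 bp. CG5895 had signal 146.8 and its summit 17 bp from the end of a 3' UTR of 65 bp, the shortest among the thresholded members. In these 3 short 3' UTRs the region of 440 bp was wider than the 3' UTR that held its summit.

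Mef2, the transcription factor that drives muscle differentiation, had signal 165.3 and its summit 1758 bp from the end, close to the middle of a 3' UTR of 3250 bp. The region ranked 1493 in replicate 2 and 2495 in replicate 3. CG16989 had signal 155.5, with rank 2224 in replicate 2 and rank 1920 in replicate 3. Tctp, the translationally controlled tumour protein, had signal 145.5 and ranked 3605 in replicate 2 but 1087 in replicate 3.

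**Figure D3:**
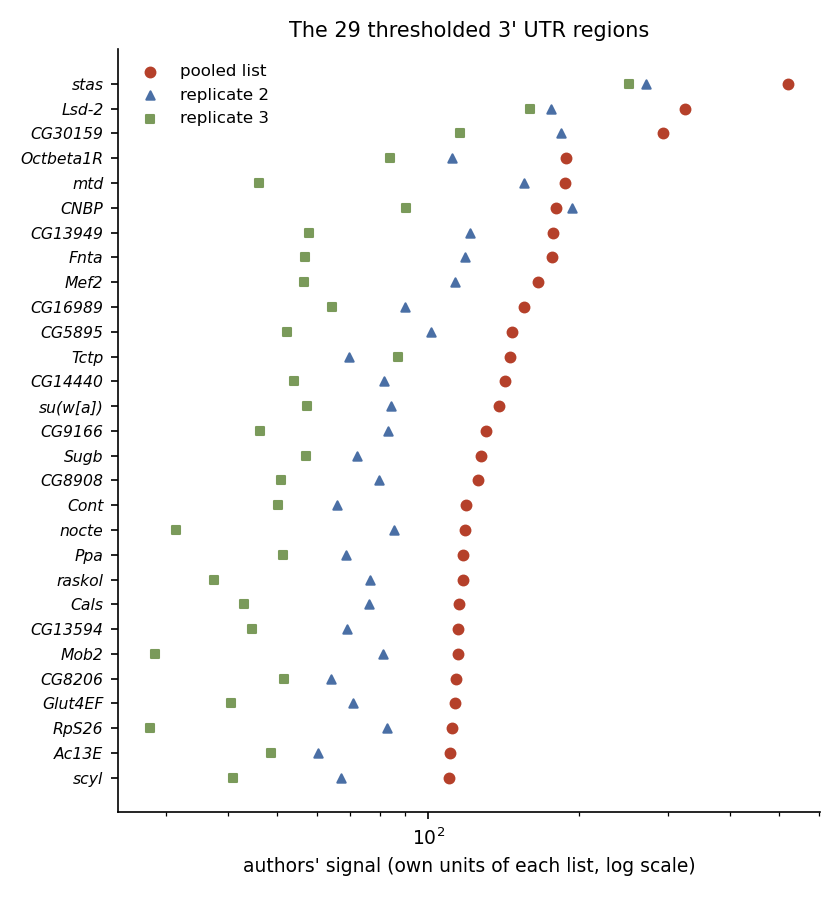
Signal of the 29 thresholded members, named by gene and ordered from strongest to weakest, on a log axis in the authors' own units; circles give the pooled list, triangles replicate 2 and squares replicate 3, each in its own list's unit. The pooled values run from 521.0 in stas to 109.9 in scyl, and the lowest replicate 3 value is 27.9 in RpS26.

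The remaining 17 thresholded members had pooled signals between 142.5 and 109.9. They lay in CG14440 (142.5), in su(w[a]), a regulator of splicing (138.6), and in CG9166 (130.3). A stretch where 3' UTRs on both strands overlap, that of Sugb and that of Pldn, the BLOC-1 subunit pallidin, held a member of signal 127.5. Those between 125.8 and 117.3 lay in CG8908, in Cont, the contactin of septate junctions, in nocte, needed for the clock to entrain to temperature, in Ppa, an F-box protein, and in raskol, a Ras GTPase-activating protein. Those between 115.2 and 113.1 lay where Cals, calsyntenin, overlaps sv, the fly Pax2 gene, and in CG13594, Mob2, CG8206 and Glut4EF. The weakest were in RpS26, a protein of the small ribosomal subunit (111.4), in Ac13E, an adenylyl cyclase (110.3), and in scyl, an inhibitor of TOR signalling (109.9).

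The members next below the threshold were in Pbgs, porphobilinogen synthase of haem synthesis, with signal 108.9 at rank 3749, and in by, with signals 106.9 and 104.8. The values on the 2 sides of the threshold were thus 109.9 in scyl and 108.9 in Pbgs.

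Among the 29, 24 overlapped a top-ranked region in replicate 2, 21 in replicate 3 and 17 in both. In some the replicates differed widely. The regions in nocte, Mob2 and RpS26 ranked 2473, 2714 and 2607 there, but 6966, 8209 and 8516 in replicate 3. Of the 29 summits 24 were annotated as 3' UTR and nothing else, and 5 also lay in an intron of another transcript, in stas, CG30159, su(w[a]), CG9166 and Glut4EF. A coding exon of another transcript held 0 of 29, which allows a share of up to 10.3% counted as 3 of 29, or 11.7% as the upper Wilson bound.

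Replicate support was lower over all members than over the list. Of the 1273 members, 650 overlapped at least 1 bp of a region in both replicate lists, or 51.1% (48.3 to 53.8%), where the whole list had 67.1%. The share was 40.7% in coding exons, 63.1% in introns and 55.2% in intergenic sequence. The 3' UTR share was 10.33 percentage points above coding exons (7.00 to 13.65), and its differences from introns and from intergenic sequence were -11.99 points (-14.87 to -9.11) and -4.09 points (-7.40 to -0.79). Replicate 2 held 996 of the members and replicate 3 held 870, while 346 were found in replicate 2 alone, 220 in replicate 3 alone and 57 in neither. Of the 30000 regions of the whole list, replicate 2 held 25643 and replicate 3 held 23645. There 5521 were found in replicate 2 alone, 3523 in replicate 3 alone and 834 in neither.

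At like rank the gap to introns was smaller. Among members at ranks 3708 to 10000, 130 of 142 overlapped both lists (91.5%, 85.8 to 95.1%), against 96.8% in introns, 97.4% in intergenic sequence and 92.6% in coding exons. At ranks 10001 to 20000 it was 333 of 497 (67.0%, 62.8 to 71.0%), against 72.1% in introns, 70.9% in intergenic sequence and 65.4% in coding exons. At ranks 20001 to 30000 it was 158 of 605 (26.1%, 22.8 to 29.8%), against 30.1% in introns, 21.5% in intergenic sequence and 19.1% in coding exons. Support fell with pooled rank in each class, and the pooled list was made from the same 2 libraries, so the spans are a description. Why support was lower over all members was not tested. In each of these 3 spans the 3' UTR share was below the intronic share, with overlapping intervals beyond rank 10000. Against intergenic sequence it was lower in the upper 2 spans and higher in the weakest, again with overlapping intervals beyond rank 10000.

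Overlap with a top-ranked region of both replicates was found for 20 members, or 1.57% (1.02 to 2.41%), where the whole list had 12.1%. It was 0.382% in coding exons, 6.44% in introns and 5.53% in intergenic sequence. A top-ranked region of replicate 2 overlapped 40 members and one of replicate 3 overlapped 36, and each count includes the 20. Over the 30000 regions of the whole list these counts were 4858 and 4865. Over the 650 members found in both lists, the best ranks in the replicates had a Spearman correlation of 0.462 and a Pearson correlation of 0.447. Over the 20122 such regions of the whole list these were 0.725 and 0.620. The Spearman correlation was 0.284 in coding exons, 0.616 in introns and 0.658 in intergenic sequence. The points share both libraries and 1 control alignment, and the values are a description. The median offset between the pooled summit and the matching replicate summit was 11 bp in replicate 2 and 39 bp in replicate 3.

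**Figure D4:**
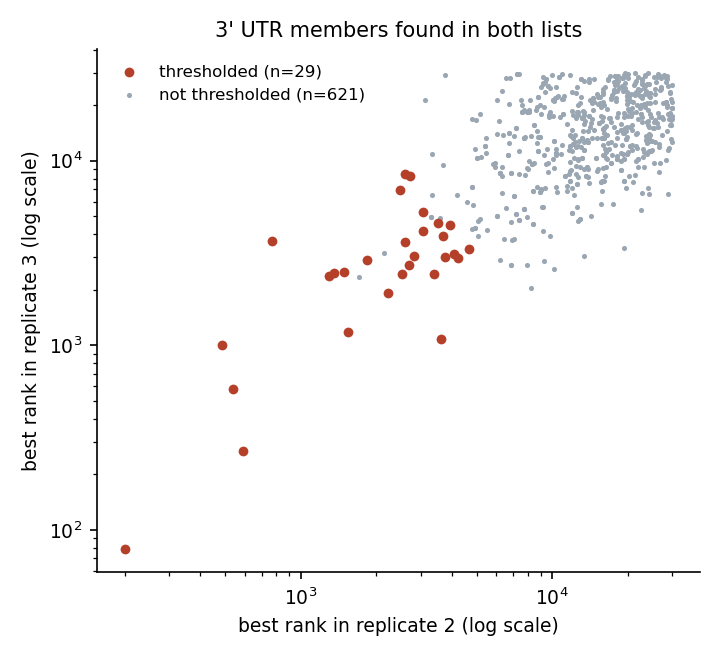
Best rank of the overlapping region in replicate 2 against replicate 3, both on log axes with 1 as the strongest, for the 650 members found in both lists; large points are the 29 thresholded members. The large points lie at rank 4674 or better in replicate 2 and at rank 8516 or better in replicate 3. The threshold itself asks how ranks hold across replicates, so their place is no separate support.

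Taken as a whole, members were not concentrated at transcript ends. The distance from summit to the nearest annotated end of a transcript whose 3' UTR held it, measured along the genome, had a median of 430 bp (quartiles 184 and 898 bp). The median over all bases that satisfy the rule was 428 bp (155 and 1025 bp). Within 100 bp of an end lay 194 members (15.2%, 13.4 to 17.3%), against 17.7% of the bases, and within 250 bp lay 424 (33.3%, 30.8 to 35.9%), against 35.5%. Within 500 bp lay 702 (55.1%, 52.4 to 57.9%), against 54.7%. Beyond 1000 bp lay 283 (22.2%, 20.0 to 24.6%), against 25.6%. The shares thus stood below those of the bases both at the very end and far from it.

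Split along the length of the 3' UTR from the stop codon, 331 members (23.7 to 28.5%) fell in the opening part of 3 equal parts, 472 (34.5 to 39.8%) in the middle and 470 (34.3 to 39.6%) in the closing part. The bases divided as 27.6%, 34.6% and 37.8%. The 29 thresholded members had a median of 245 bp to the end, against 432 bp for the others and 428 bp for the bases. Within 250 bp lay 16 of 29 (55.2%, 37.5 to 71.6%), against 35.5% of the bases, which is below that interval. Within 100 bp lay 7 (24.1%, 12.2 to 42.1%) and within 500 bp lay 17 (58.6%, 40.7 to 74.5%). Those intervals include the shares of the bases, 17.7% and 54.7%. Of the members in the closing part 16 of 470 were thresholded (3.40%, 2.11 to 5.46%), against 5 of 331 in the opening part (1.51%, 0.647 to 3.49%). These intervals overlap.

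**Figure D5:**
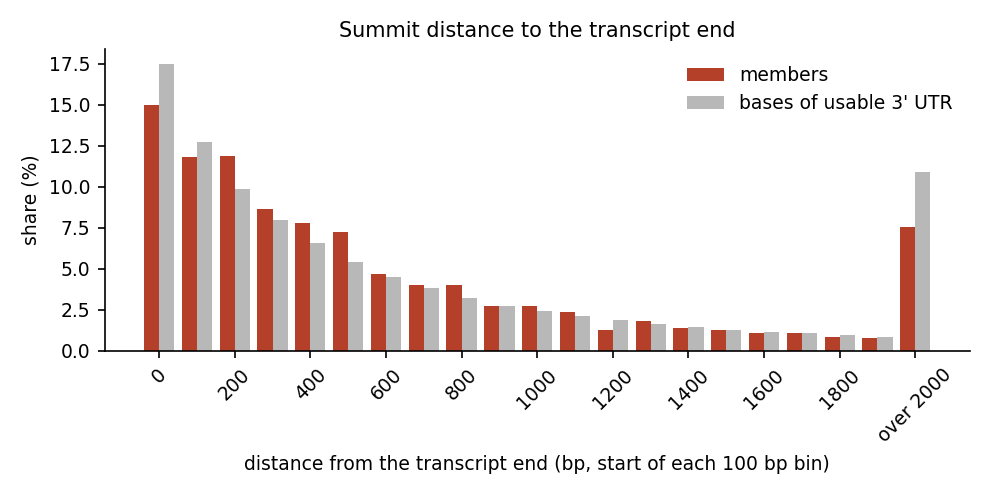
Distance from the summit to the nearest transcript end in steps of 100 bp, as a share of the 1273 members (dark bars) and of all bases that satisfy the same rule (light bars); the last step holds everything over 2000 bp. The medians were 430 bp over members and 428 bp over bases.

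The 3' UTRs that held members were long, with a median of 1059 bp (quartiles 551 and 2173 bp) and a longest of 18494 bp. Usable 3' UTR means the bases of a gene that satisfy the rule. Among protein-coding genes, 64 of 4868 with under 200 bp of usable 3' UTR held a member (1.31%), and 290 of 804 with at least 2000 bp did (36.1%). Per base the order differed: members fell at 134 per Mb in the shortest group, at 234 per Mb in genes with 500 to 999 bp and at 169 per Mb in the longest. Of the members 966 (75.9%) lay where the annotation has only 3' UTR, while 126 also lay in a coding exon of another transcript and 188 in an intron. Transcripts on both strands covered 101 summits, and 56 summits lay in 3' UTRs of more than 1 gene.

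Each member was assigned to the gene with the nearest transcript end, which gave 987 genes. Of these 783 held 1 member, 150 held 2, 36 held 3 and 18 held 4 or more. Lsd-2, Glut4EF, corto and CG1888 held 6 each, and Hrb27C and aqz held 5 each. The other 5 members in Lsd-2 had signals of 95.4, 54.3, 54.3, 42.3 and 30.2, all far below the 325.4 of its strongest, and none was thresholded. In Glut4EF, a gene with 10765 bp of usable 3' UTR, signals ran from 113.1 to 45.1, and 1 was thresholded.

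In corto, which encodes a chromatin protein linked to the Polycomb and Trithorax groups, the 6 members had signals from 66.2 to 39.1 over 6594 bp of usable 3' UTR. In CG1888 they ran from 56.6 to 37.0, and in Hrb27C, an hnRNP that binds RNA in splicing and mRNA localisation, from 74.2 to 38.3. In aqz they ran from 42.8 to 29.9. None of the members in corto, CG1888, Hrb27C or aqz was thresholded. Members of 1 gene could share a replicate region: in corto the summits of signal 54.8 and 43.0 both matched rank 8288 in replicate 2 and rank 9573 in replicate 3.

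Genes with a member more often also carried a region at their own promoter. Counting every protein-coding gene whose usable 3' UTR held a member, overlapping genes included, 1031 of 11230 did (9.18%). Of these 422 had a thresholded summit within 500 bp of 1 of their own start sites (40.9%, 38.0 to 44.0%), against 2338 of the 10199 genes without a member (22.9%, 22.1 to 23.7%). The share was higher with a member in each group of 3' UTR length: 21.9% against 18.0% under 200 bp, 40.7% against 26.2% at 200 to 499 bp, 39.1% against 29.6% at 500 to 999 bp, 42.5% against 28.5% at 1000 to 1999 bp and 45.5% against 23.9% from 2000 bp. In the shortest group the interval with a member, 13.5 to 33.4%, includes the share without one.

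The members' own strength went the same way. Of 566 members in genes with a thresholded promoter summit, 20 were thresholded (3.53%, 2.30 to 5.39%), against 9 of 707 in the other genes (1.27%, 0.671 to 2.40%). The bounds of these intervals overlap between 2.30 and 2.40%.

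The gene lists describe which kinds of gene held members, and they are read beside 9.18% of all genes with usable 3' UTR and a median of 256 bp of it. The clock genes had a median usable 3' UTR of 1367 bp. Of all genes with 1000 to 1999 bp of it, 22.8% held a member (20.5 to 25.4%). Among clock genes 8 of 24 held a member (33.3%), and none was thresholded. They were mts, a catalytic subunit of protein phosphatase 2A (signal 70.1), tyf, which promotes translation of per (55.6), Pdp1, which drives Clk transcription (54.3), sgg, the GSK3 kinase (54.1), tim, the partner of per (40.3), nmo, a kinase of per (38.1), Pdfr, the receptor of the clock neuropeptide (31.7), and CkIIbeta, a casein kinase 2 subunit (30.5). The tim summit lay 5393 bp along the genome from the transcript end. Of these genes, tyf, Pdp1, sgg, nmo and CkIIbeta had 3542 to 4868 bp of usable 3' UTR. In genes with at least 2000 bp of it, 36.1% held a member. The other clock genes with a member had 1372 to 1770 bp. The 33.3% was not matched for length gene by gene. Of the forkhead family 0 of 17 genes held a member, which allows a share of up to 17.6% counted as 3 of 17.

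Crg-1 itself, with 472 bp of usable 3' UTR, held none. Its locus carried 1 candidate of the pooled list, in an intron, at chrX:3796139-3796578 with signal 31.8 and rank 26620.

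RNA-binding regulators held a member in 15 of 37 genes (40.5%), led by Hrb27C (74.2), orb, which controls polyadenylation in oocytes (59.8), tyf (55.6) and Imp, an mRNA-binding protein (55.3). Genes known for extended 3' UTRs in neurons held one in 7 of 10, led by nej, the CBP acetyltransferase (69.8), Imp, elav, the neuronal RNA-binding protein (47.8), and shep (45.3). These lists share genes, and their median usable 3' UTRs were 3673 and 6330 bp, in the length range where 36.1% of all genes held a member. No gene of either list had a thresholded member.

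Muscle genes, insulin and TOR signalling, maternal mRNAs and glycolytic enzymes held members in 23.1 to 26.7% of their genes, with median usable 3' UTRs of 299 to 803 bp. Muscle genes had 6 of 25, led by Mef2 (165.3), TpnC73F, a troponin C (80.3), bt, projectin (39.4), and Tm1, tropomyosin (32.9). Insulin and TOR signalling had 6 of 26, led by scyl (109.9), SNF4Agamma, a subunit of AMPK (66.7), Pi3K21B, the regulatory subunit of PI3 kinase (45.3), and Pdk1 (37.7). Cytoplasmic ribosomal proteins had 7 of 65, led by RpS26 (111.4), RpL10 (62.9), RpS10b and RpS29 (45.6). The median usable 3' UTR of that list was 149 bp, but the 7 genes ranged from 172 bp in RpLP0 to 2590 bp in RpL5. Maternal and localised mRNAs had 4 of 15, which were orb, CycB (48.8), osk (47.0) and hb (31.0). Glycolytic enzymes had 3 of 12, in Hex-A (61.7), Gapdh1 (57.2) and Ald1 (39.9), with 1969, 221 and 1669 bp of usable 3' UTR.

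Neuronal genes had 4 of 25, in elav, Rbp9 (44.1), Syx1A (43.7) and Syt1 (29.6). Their median usable 3' UTR was 3669 bp, about that of the RNA-binding list, so that share was below the 36.1% of all genes in this length range. Fat body genes had 2 of 14, in Lsd-2 (325.4) and Desat1 (35.9). Glial genes had 2 of 12, in moody (35.0) and axo (34.8), and heat shock genes 2 of 19, in Hsp110 (40.2) and Hsp27 (30.1). Translation factors had 2 of 21, in eRF3 (37.1) and eEF1alpha1 (32.3), and patterning genes 3 of 37, in hry (33.4), Scr (31.9) and hb. Photoreceptor genes had 1 of 22, ninaC (34.1), and gut genes 1 of 14, Vha16-1 (50.8). In muscle, fat body, insulin and TOR signalling and ribosomal proteins 1 gene each had a thresholded member, and no other list had any.

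Forkhead words were about as frequent around member summits as in the 3' UTR sequence at large. Median GC content of the 101 bp around the summit was 38.6% over members and 41.6% over thresholded members, against 35.6% over windows of the rule's bases and 42.6% over the whole list. GTAAACA occurred in 28 of 1273 members (2.20%, 1.53 to 3.16%), against 2.15% of such windows of 3' UTR bases, 3.62% of the whole list, 4.32% of intronic summits and 6.02% of all thresholded summits. Any of the 8 forkhead words, GTAAACA included, occurred in 380 members (29.9%, 27.4 to 32.4%), against 30.6% of windows and 28.1% of the whole list. Among thresholded members it was 11 of 29 (37.9%, 22.7 to 56.0%), close to the 36.1% of all thresholded summits. The reversed word ACAAATG stood at 3.06% of members, against 3.28% of windows.

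The polyadenylation signal AATAAA occurred in 247 members on either strand (19.4%, 17.3 to 21.7%), against 24.6% of windows of 3' UTR bases and 19.1% of the whole list. Its last 5 letters open the forkhead words ATAAACA and ATAAATA, so hits of both kinds can overlap. The DNA replication-related element TATCGATA occurred in 2 members (0.157%), against 0.241% of windows and 3.86% of all thresholded summits. The E-box CACGTG, the site of the clock activators, occurred in 14 members (1.10%, 0.656 to 1.84%), against 0.779% of windows. It stood at 1.34% of the whole list and at 1.57% of summits both in introns and in coding exons. GAGAG occurred in 141 members (11.1%), against 10.2% of windows and 13.5% of the whole list. A match is a run of letters and not a bound site.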

How the data were processed

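The files analysed were lists of candidate regions from 2 ChIP-seq libraries on build dm6. Per the deposited descriptions, the authors called 1 list for each replicate and 1 for both alignments pooled, each with 30000 regions, and derived the thresholded set by irreproducible discovery rate (IDR), which asks how ranks hold across replicates. Among the members, the set held exactly those at pooled ranks 1 to 3707, whatever their own replicate ranks. The deposited signal is the authors' own unit for region height, and how it was normalized is not stated. The sources used here name neither the aligner nor the caller. The lists on dm3 were not used.

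Summits, counted from 1, were classed with Ensembl release 115, without transposable elements, in a fixed order, from promoters through 5' UTRs, 3' UTRs and coding exons to introns and intergenic sequence. Of 30593 annotated start codons 99.8% read ATG in the genome used. Overlap meant at least 1 bp, and the best-ranked overlapping replicate region gave the rank, wherever its own summit lay. Shares have Wilson and differences Newcombe 95% intervals, and no test was made, since 1 group has no contrast between samples. The classification and word search were checked on simulated data. Python 3.11.15, numpy 2.4.6, pandas 2.3.3 and scipy 1.17.1 were used.

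Genes were named when they held a thresholded member, 1 of the 3 strongest members outside that set or the most members (5 genes, and aqz, tied for the last place), or were among the 4 strongest of a list; all clock and forkhead genes with a member and Crg-1 were named too. Of the 17 gene lists, 7 names matched through an older symbol and 8 entries matched no gene. The genes shown around GTAAACA were the strongest with that word once 1 chromosome arm was left out. The members and lists were chosen with earlier results of these data known. Alternatives covered the start-site distance, annotation, overlap, number of top-ranked regions, word and window, and each replicate list alone.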

Additional observations from a re-analysis of the deposited data

How the results depend on the processing

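Of 63 alternative values 15 lay outside the 95% interval of the value given and are listed here. The 63 include 9 counts of members, which have no interval and are not among the 15. They were held only to a wide band of 849 to 1910 set around the main count, and they ran between 966 and 1392. At over 250 bp from a start site the share of members top-ranked in both replicates was 2.59% and the median end distance 396 bp, and at over 1000 bp that distance was 506 bp. The median was 394 bp without summits in coding exons, 369 bp for summits annotated only as 3' UTR and 645 bp to the most distal end of the gene. The share in both replicate lists was 47.1% with 1 entry per cluster of overlapping regions, 40.1% when at least 50% of both regions had to overlap and 40.4% when the replicate region had to hold the summit. With 1000 top-ranked regions per replicate the share in both was 0.236%, and with 10000 it was 8.88%. The stronger part of the thresholded set, above its median rank, held 0.707% of members. GTAAACA stood at 1.49% within 25 bp, at 6.05% within 100 bp and at 29.9% for all 8 words. The replicate lists taken alone, each leaving out the other replicate, gave 1284 to 1309 members, 2.18 to 2.52% of them among the strongest regions of that list (as many as the thresholded set holds, in place of that set), a median end distance of 425 to 444 bp and GTAAACA at 2.83 to 2.96%. No paired analysis was possible because the study has only 1 group. Where the cause of a move is not the setting's own construction, the cause was not tested. Depth is unknown, so no read-level limit can be given.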

Other observations

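Members were spread over all 6 arms, with 310 on 3R, 272 on X, 251 on 2R, 233 on 3L, 190 on 2L and 17 on chromosome 4. Per Mb of usable 3' UTR they ranged between 158 on chromosome 4 and 218 on 2R, with 176 on X. Thresholded members numbered 9 on X (3.31% of its members, 1.75 to 6.17%), 6 on 2R, 5 each on 3L and 3R, 3 on 2L (1.58%, 0.538 to 4.54%) and 1 on chromosome 4. The intervals of X and 2L overlap.

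The nearest start site was that of the gene itself for 426 members (33.5%, 30.9 to 36.1%), so for most it belonged to another gene. That start site lay downstream of the summit, in the gene's direction, for 766 members (60.2%, 57.5 to 62.8%). The median distance was 1951 bp, against 2381 bp over all bases that satisfy the rule. Besides the 29, 6 members overlapped a thresholded region whose summit lay outside the member class or in another member. A thresholded summit other than the member's own lay within 1000 bp of 52 members (4.08%, 3.13 to 5.32%).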
